A study of Mus musculus with 20 samples.

Results

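The genes described here are 8 genes of zinc handling, taken by symbol from the 49315 genes of a liver RNA-seq table: the metallothioneins Mt1 and Mt2, the zinc-sensing transcription factor Mtf1, the exporters Slc30a1 and Slc30a10, and the importers Slc39a1, Slc39a5 and Slc39a14. All 8 reached a mean of 1 TPM (the share of a library that a gene takes once its length is divided out) over all livers and were tested. The livers came from 20 mice of a model of diet-induced obesity with steatohepatitis, the inflamed form of fatty liver. In 10 of them S217879 was given by mouth at 30 mg/kg once a day for 8 weeks; the series title describes the compound as keeping the stress-response transcription factor NRF2 apart from KEAP1, which represses it. The other 10 mice received the vehicle, hydroxyethylcellulose (HEC) at 1%, over the same 8 weeks. Both groups stayed on the AMLN diet, which is rich in fat, fructose and cholesterol. The labels used here give no age, sex or strain, and no liver of a lean mouse was analysed here, so that every difference is between livers of the disease model with and without the compound.

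Metallothioneins are small cysteine-rich proteins that bind zinc and copper, and the liver is one of their main sites of synthesis. Free zinc activates MTF1, which binds metal response elements (MREs) in the promoters of Mt1, Mt2 and the exporter gene Slc30a1. Glucocorticoids and the inflammatory acute phase response also raise hepatic metallothionein, and the acute phase cytokine interleukin-6 raises the importer ZIP14, the product of Slc39a14. Exporters of the SLC30 (ZnT) family move zinc out of the cytosol, and importers of the SLC39 (ZIP) family move it in.

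Mt1 and Mt2 lie side by side on the plus strand of chromosome 8 (GRCm38, GENCODE M21), Mt2 at chr8:94172664-94173568 and Mt1 at chr8:94179082-94180327, with 5513 nt and no other annotated gene between them. Their promoters are shown with that of Slc30a1 because these are the members whose promoters are known for MREs. Each run is the 250 bases before the RefSeq start (RefSeq, GRCm38.p6, plus strand): chr8:94178839-94179088 for Mt1, chr8:94172368-94172617 for Mt2 and chr1:191906531-191906780 for Slc30a1. Capitals mark every match to the MRE core, TGCACNC or TGCGCNC, on either strand.
Mt1: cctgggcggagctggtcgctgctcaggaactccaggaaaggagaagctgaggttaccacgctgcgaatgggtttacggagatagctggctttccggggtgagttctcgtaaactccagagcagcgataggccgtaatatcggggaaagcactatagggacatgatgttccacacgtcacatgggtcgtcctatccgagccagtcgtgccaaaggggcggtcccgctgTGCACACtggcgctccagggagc
Mt2: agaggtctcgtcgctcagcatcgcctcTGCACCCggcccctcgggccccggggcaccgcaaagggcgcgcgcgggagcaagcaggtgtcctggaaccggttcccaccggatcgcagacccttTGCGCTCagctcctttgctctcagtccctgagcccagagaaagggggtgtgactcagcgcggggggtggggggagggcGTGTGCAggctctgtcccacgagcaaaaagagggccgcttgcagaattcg
Slc30a1: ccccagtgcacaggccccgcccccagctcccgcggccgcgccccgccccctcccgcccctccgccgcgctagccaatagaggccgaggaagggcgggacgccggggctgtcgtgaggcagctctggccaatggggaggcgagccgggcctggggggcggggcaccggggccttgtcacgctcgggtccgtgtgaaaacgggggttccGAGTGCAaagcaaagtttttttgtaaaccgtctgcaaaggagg

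RefSeq windows from 250 bases before to 50 after the start were found for 7 of the 8 members, all but Slc39a14, with 2 windows for Slc39a5 and 1 for each other gene. The Mt2 window held 4 MRE cores, the Mt1 window 3, the Slc30a1 window 2, and the Slc30a10 window 3, of which 2 overlap each other on opposite strands. An Slc39a5 window held 1 core, and the windows of Slc39a1 and Mtf1 held 0. Of 32851 mouse windows of the same length, 25.7% held at least 1 MRE core, 1.97% at least 3 and 0.518% at least 4. The core of the antioxidant response element, to which NRF2 binds with small MAF proteins, was searched as TGACNNNGC on both strands. It occurred once in the windows of Mt2 (TGACTCAGC), Slc30a1 and Slc39a1 and 2 times in 1 Slc39a5 window, against 12.4% of all windows with at least 1. For Mt1 the annotated starts differ by 152 bases between the RefSeq start and the latest-starting model, and over the 472 bases up to its start codon there were 5 MRE cores and 1 antioxidant core, TGACTATGC at chr8:94179141-94179149. The stretch of Mt2 up to its start codon, 480 bases, held 7 MRE cores and 1 antioxidant core. Of these MRE cores 4 lie before the latest annotated start of Mt2 ahead of the codon, whereas for Mt1 all 5 do. The share of other genes' stretches of that length was not computed. The matches are letters in a window and were not tested for binding.

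Across the members, S217879 livers had more Mt1 and Slc39a5 and less Slc39a1 and Slc39a14 RNA than vehicle livers, while Mt2, Mtf1, Slc30a1 and Slc30a10 did not pass the test. The test was limma on log2(TPM + 0.5) over the 13401 genes whose mean over all livers reached 1 TPM, at a Benjamini-Hochberg adjusted p under 0.05. Of all genes tested, 6.07% were called higher and 23.5% lower in S217879, so that the 2 of 8 members called higher and the 2 called lower stand beside those shares. With median-of-ratios scaling, which sets the libraries to a common scale through the ratios of their genes, the shares were 26.6% higher (3561 genes, against 813 as deposited) and 27.1% lower (3634, against 3151). That scaling moved the median log2 difference of all genes by 0.11, to -0.01, against -0.12 as deposited.

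The groups had similar ranges of genes detected, with 24681 to 27321 genes above 0 in S217879 livers and 24659 to 27744 in vehicle livers. The highest were S217879 replicates 1 and 9 (27132 and 27321) and vehicle replicates 6, 7 and 8 (27547, 27188 and 27744). The next was S217879 replicate 4 at 26350. The number of reads is unknown, since TPM keeps no depth. The 4 rRNA-type genes Gm23935, Gm24270, Gm42418 and Mir6236 took 14.1% to 38.1% of TPM in S217879 livers and 17.4% to 58.2% in vehicle livers. Vehicle replicates 6 and 7 stood apart at 58.2% and 50.7%, which leaves a smaller share for all other genes in those livers. The labelled tissue matched its markers, with the 6 hepatocyte markers (Alb, Apoa1, Ttr, Serpina1c, Cps1, Asgr1) summing to 33817 to 54088 TPM in S217879 livers and 26669 to 61485 TPM in vehicle livers. Of 12 NRF2 core targets 11 were tested, and 10 were higher and 0 lower in S217879 (0 lower also unadjusted and by a Wilcoxon rank-sum test), with a median log2 difference of 2.79.

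By TPM as deposited, Mt1 was the most abundant member in S217879 livers, and it rose in that group. Its level was 96.3 TPM at the lowest, 120 at the median and 548 at the highest in S217879 livers, against 53.2, 62.2 and 93.3 TPM in vehicle livers. Every S217879 liver was above every vehicle liver, as was so for 1.84% of all genes tested, and 9 of the S217879 livers lay at or below 211 TPM while replicate 9 had 548. The means were 170 ± 137 TPM in S217879 livers and 68.2 ± 13.9 TPM in vehicle livers (SD, n = 10 each), a log2 difference of 1.1 (SE 0.25), or 2.15-fold on the log2(TPM + 0.5) scale (limma, adjusted p = 0.00183). Without S217879 replicate 9 the mean of the other 9 was 128 ± 35.3 TPM and the log2 difference 0.89 (limma, adjusted p = 2.00e-06), 1.85-fold. After median-of-ratios scaling the log2 difference was 1.22 (limma, adjusted p = 0.000363), but the ranges then overlapped. The gene was called higher in 32 of 32 alternatives. On the median-of-ratios scale the lowest S217879 liver, replicate 4, had 83.5 rescaled TPM of Mt1, while vehicle replicate 6 had 127 and the other 9 vehicle livers 46.1 to 81.9.

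Mt2, the neighbouring gene, whose product binds the same metals, did not pass the test as deposited. It had 47.1 TPM at the lowest, 61.5 at the median and 580 at the highest in S217879 livers, against 32.4, 42.4 and 64.4 TPM in vehicle livers. All 10 S217879 livers were above the vehicle median, and 5 of them above every vehicle liver. The means were 122 ± 163 TPM in S217879 livers and 44.9 ± 11.03 TPM in vehicle livers (SD, n = 10 each), a log2 difference of 0.92 (SE 0.36; limma, adjusted p = 0.0587). Without S217879 replicate 9 the difference was smaller and passed, at 0.61 (SE 0.17; limma, adjusted p = 0.00533), or 1.53-fold. It also passed without S217879 replicate 3, at 1.01 (limma, adjusted p = 0.0481), and without vehicle replicate 6, at 0.98 (limma, adjusted p = 0.0389). After median-of-ratios scaling it was 1.04 (limma, adjusted p = 0.0144), and its adjusted p ran from 0.00533 to 0.103 over 32 alternatives, of which 9 passed. Gm45774, an antisense gene that overlaps Mt2, averaged 1.63 ± 1.54 TPM in S217879 livers and 0.885 ± 0.258 TPM in vehicle livers, and whether the authors' counting used strand is not given. Reads of Mt2 and Gm45774 therefore cannot be told apart with certainty. The paralogs Mt3, known from brain, and Mt4, known from squamous epithelium, were below the minimum, with means from 0.0408 to 0.0607 TPM in either group.

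**Figure D1:**
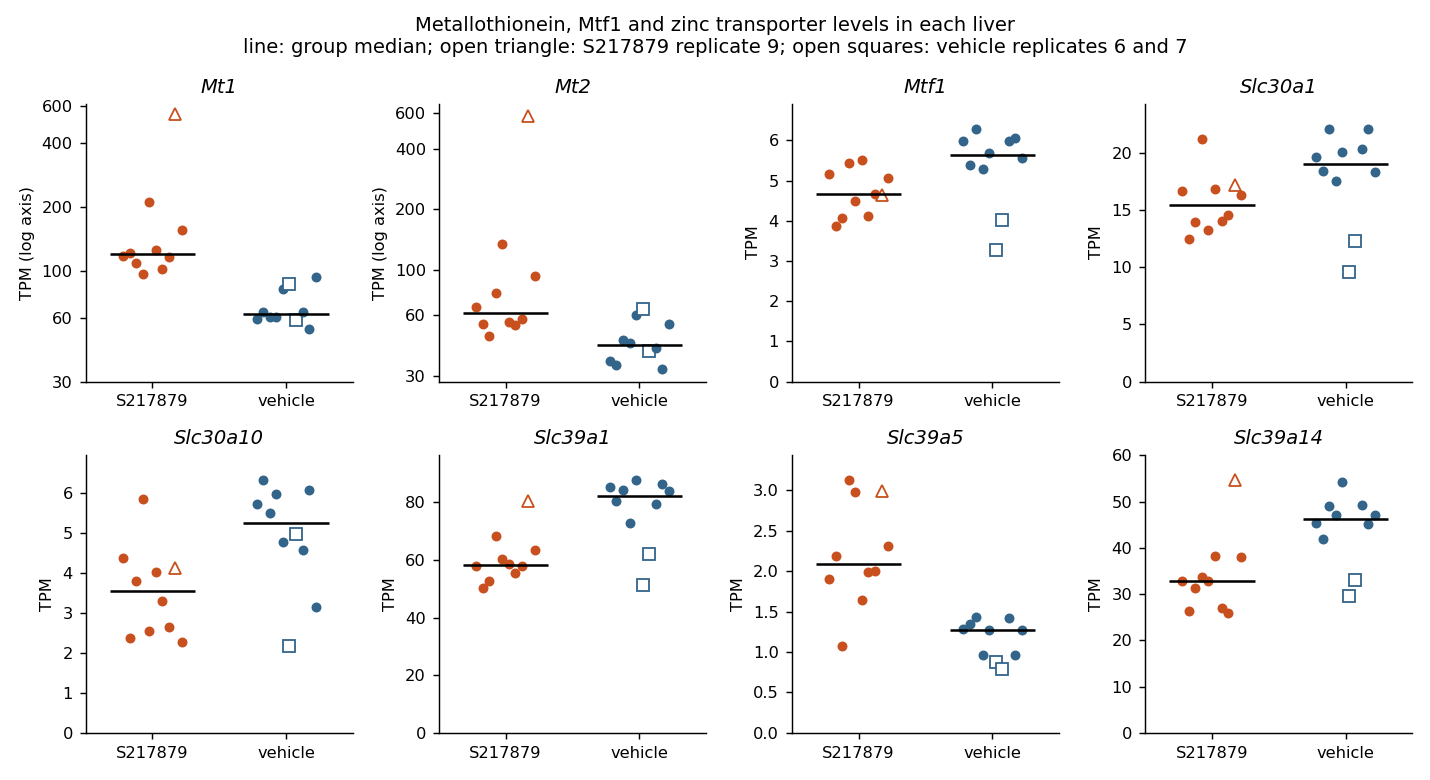
Level of each of the 8 genes in every liver in TPM (Mt1 and Mt2 on a log axis), S217879 left and vehicle right, 1 point per animal, with the group median as a line. All 10 S217879 points of Mt1 lie above the vehicle points, replicate 9 (open triangle) is at 548 TPM for Mt1 and 580 TPM for Mt2, and vehicle replicates 6 and 7 (open squares) are the lowest of their group for Mtf1, Slc30a1, Slc39a1, Slc39a5 and Slc39a14.

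Mt1 and Mt2 were correlated from liver to liver by Pearson's r within each group, though not by Spearman's rho after adjustment. In the S217879 group r depended on 2 livers. In S217879 livers Pearson's r of their log2 levels was 0.96 (n = 10, permutation p = 0.00314, adjusted over 8 relations 0.0201) and Spearman's rho 0.64 (permutation p = 0.0541, adjusted 0.2166). Without replicates 5 and 9, the livers farthest from the median of Mt1, r was 0.46, so r in that group depends on those livers. Leaving out the extremes of Mt1 narrows its range, which can itself lower r. In vehicle livers r was 0.86 (permutation p = 0.00502, adjusted 0.0201) and rho 0.73 (permutation p = 0.0195, adjusted 0.1563), and r was 0.82 without replicates 6 and 10. After median-of-ratios scaling r of Mt1 with Mt2 was 0.95 in S217879 livers (permutation p = 0.00384, adjusted 0.0154) and 0.95 in vehicle livers (permutation p = 0.00014, adjusted 0.00112). On that scale rho was 0.45 in S217879 livers (permutation p = 0.188, adjusted 0.251) and 0.90 in vehicle livers (permutation p = 0.00072, adjusted 0.00576). Without the same livers r was then 0.34 and 0.90. The other 6 relations of Mt1, with Mtf1, Slc30a1 and Slc39a14 in each group, had adjusted permutation p from 0.0986 to 0.9463 for r, the lowest being Slc39a14 in S217879 livers at r = 0.80, which was 0.44 without replicates 5 and 9. After median-of-ratios scaling 2 of those 6 passed for r, Mt1 with Slc39a14 in S217879 livers (r = 0.82, permutation p = 0.0161, adjusted 0.0322) and Mt1 with Slc30a1 in vehicle livers (r = -0.76, permutation p = 0.014, adjusted 0.0322), and without the 2 livers farthest from the median of Mt1 these were 0.52 and -0.45. Neither passed for Spearman's rho, at 0.70 for Slc39a14 and -0.65 for Slc30a1 (permutation p = 0.0306 and 0.0488, adjusted 0.122 and 0.130).

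The ratio of Mt1 to Mt2 within a liver, which does not depend on the scale of its library, had a median of 1.84 in S217879 livers (0.945 to 2.32) and 1.51 in vehicle livers (1.35 to 1.90). The lowest of all 20 was replicate 9 at 0.945, the one liver with more TPM of Mt2 than of Mt1. The size of the ratio depends on the gene lengths used, which are not given, but its comparison between livers does not. The log2 difference was 0.18 (SE 0.14, permutation test, two-sided p = 0.2232, adjusted over 3 ratios 0.2232), and without replicate 9 it was 0.28 (permutation test, p = 0.0231).

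**Figure D2:**
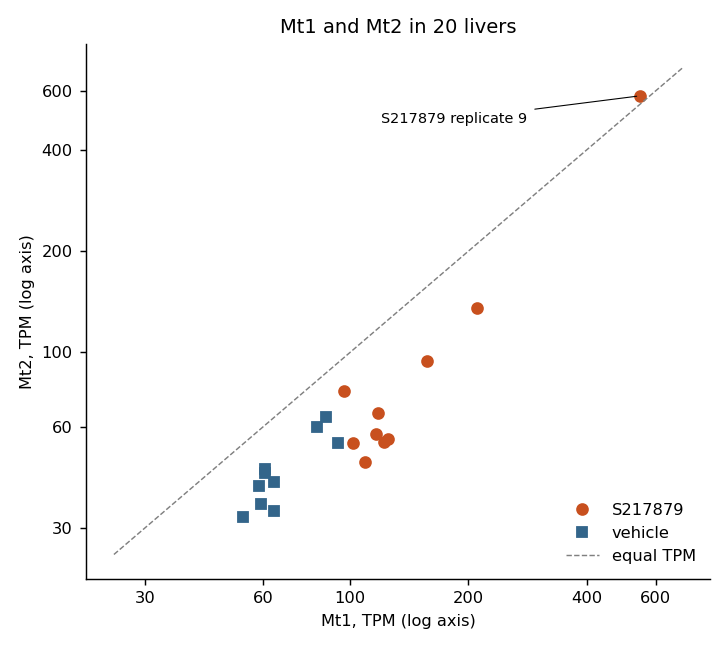
Mt2 against Mt1 in TPM on log axes, 1 point per liver, with S217879 as circles and vehicle as squares; the dashed line marks equal TPM. The points of S217879 lie to the right of those of vehicle, and replicate 9, at 548 TPM of Mt1 and 580 TPM of Mt2, is the only point above the line.

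Mtf1 (chr4:124802104-124849800, plus strand), the zinc sensor that drives both metallothionein genes, did not pass the test. It had 3.87 TPM at the lowest, 4.66 at the median and 5.50 at the highest in S217879 livers, against 3.28, 5.63 and 6.29 TPM in vehicle livers. The ranges overlapped, although all 10 S217879 livers were below the vehicle median, and the 2 lowest vehicle livers were replicates 6 and 7. The log2 difference was -0.16 (SE 0.11; limma, adjusted p = 0.277). It was -0.28 without vehicle replicates 6 and 7 (limma, adjusted p = 0.00174) and -0.23 without replicate 6 alone (limma, adjusted p = 0.0325). In those settings 54.4% and 38.7% of all genes tested were called lower, at median log2 differences of -0.23 and -0.18. The difference of Mtf1 was -0.05 after median-of-ratios scaling (limma, adjusted p = 0.303) and 0.02 after quantile normalization (limma, adjusted p = 0.756). Mtf1 overlaps 1110065P20Rik on the opposite strand, which averaged 14.4 ± 2.21 TPM in S217879 livers and 14.3 ± 3.84 TPM in vehicle livers, so that reads from the overlap are uncertain as for Mt2.

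Neither exporter passed the test as deposited. Slc30a1 (chr1:191906767-191913247, plus strand), which encodes ZnT1, the zinc exporter of the plasma membrane and a textbook MTF1 target, had 12.5, 15.5 and 21.2 TPM at the lowest, median and highest in S217879 livers, against 9.55, 19.1 and 22.1 TPM in vehicle livers. The ranges overlapped, and 9 of 10 S217879 livers were below the vehicle median. The log2 difference was -0.18 (SE 0.13; limma, adjusted p = 0.317), and its value without vehicle replicate 6 was -0.27 (limma, adjusted p = 0.0346), without replicates 6 and 7 -0.34 (limma, adjusted p = 0.0016) and after median-of-ratios scaling -0.06 (limma, adjusted p = 0.349). All genes tested had medians of -0.12 as deposited, -0.18 without replicate 6 (38.7% called lower) and -0.23 without replicates 6 and 7 (54.4%). Mt1 and Slc30a1 are both known for MREs in mouse. Mt1 passed the test and Slc30a1 did not, which does not test whether the genes differ. The part of MTF1 in either level was not tested. The ratio of Mt1 to Slc30a1 within a liver had a median of 7.92 in S217879 livers (4.54 to 31.8) and 3.45 in vehicle livers (2.41 to 9.08). It was above the vehicle median in 10 of 10 S217879 livers. Since the call of Mt1 largely fixes its direction, the ratio is given as a description, with no test. Its log2 difference was 1.29 (SE 0.30), most of it the difference already called for Mt1. Leaving out each liver in turn gave 1.09 to 1.43.

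Slc30a10 (chr1:185454848-185468762, plus strand) belongs to the zinc exporter family by sequence but is known chiefly as the manganese exporter of hepatocytes. It had 2.26, 3.54 and 5.83 TPM at the lowest, median and highest in S217879 livers, against 2.17, 5.23 and 6.31 TPM in vehicle livers. The ranges overlapped almost fully, with 9 of 10 S217879 livers below the vehicle median. The log2 difference was -0.42 (SE 0.17; limma, adjusted p = 0.0668). It passed in 6 of 31 alternatives, all in the same direction, among them leaving out S217879 replicate 4 at -0.50 (limma, adjusted p = 0.0187), vehicle replicate 6 at -0.53 (limma, adjusted p = 0.00453) and vehicle replicate 10 at -0.48 (limma, adjusted p = 0.0368). The medians of all genes tested in those settings were -0.14, -0.18 and -0.11.

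Of the 10 genes of the Slc30 family 7 were tested, and 0 were higher and 0 lower by limma, beside 6.07% and 23.5% of all genes tested. Their median log2 difference was -0.07 beside -0.12 for all genes tested. At an unadjusted p under 0.05, 0 were higher and 1 was lower, Slc30a10, and the Wilcoxon rank-sum test called 0 in either direction. Slc30a5, Slc30a6 and Slc30a7, which load the secretory pathway with zinc, differed by -0.07, 0.06 and -0.03 (limma, adjusted p from 0.726 to 0.87). Slc30a4 differed by -0.17 and Slc30a9 by -0.05, both short of the threshold. After median-of-ratios scaling the family median was 0.05, the sign being reversed, and Slc30a6 alone passed, at 0.17 (limma, adjusted p = 0.0117). Without vehicle replicate 6, 3 of the 7 exporters were lower, beside 38.7% of all genes tested, and without vehicle replicates 6 and 7, 5 of the 7 were, beside 54.4%. Rescaling without the 4 rRNA-type genes gave 6 lower exporters beside 63.1% of all genes tested, and array weights gave 6 beside 59.9%. Slc30a10 was the 1 gene called lower without S217879 replicate 4 and without vehicle replicate 10. Slc30a2, Slc30a3 and Slc30a8 were below the minimum, with group means from 0.0364 to 0.231 TPM.

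The importers moved in both directions. Slc39a1 (chr3:90248172-90253612, plus strand), which encodes ZIP1, a zinc importer of the plasma membrane found in most tissues, fell in S217879 livers. It had 50.4, 58.2 and 80.3 TPM at the lowest, median and highest in S217879 livers, against 51.2, 82.1 and 87.6 TPM in vehicle livers. All 10 S217879 livers were below the vehicle median, and the ranges overlapped through S217879 replicate 9 and through vehicle replicates 6 and 7, the lowest of their group. No member had every S217879 liver below every vehicle liver, as 1.89% of all genes tested had. The means were 60.5 ± 8.64 TPM in S217879 livers and 77.3 ± 11.99 TPM in vehicle livers (SD, n = 10 each), a log2 difference of -0.34 (SE 0.12; limma, adjusted p = 0.0229), and the gene was called lower in 32 of 32 alternatives. After median-of-ratios scaling the difference was -0.23 (limma, adjusted p = 0.000118), and 9 S217879 livers, at 58.0 to 65.7 rescaled TPM, were below all vehicle livers, at 69.0 to 78.9, while replicate 9 was at 75.2. A processed copy, Slc39a1-ps, shares 21.8% of the 50-base stretches of Slc39a1 transcripts and was listed at a mean of 0.0657 TPM in S217879 livers and 0.0568 TPM in vehicle livers.

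Slc39a14 (chr14:70303469-70351425, minus strand) encodes ZIP14, which carries zinc, manganese and iron into hepatocytes, and it also fell. It had 25.9, 32.8 and 54.6 TPM at the lowest, median and highest in S217879 livers, against 29.6, 46.2 and 54.2 TPM in vehicle livers. The highest of all 20 livers was S217879 replicate 9, and the other 9 S217879 livers lay at or below 38.3 TPM, under all vehicle livers but replicates 6 and 7. The means were 34.1 ± 8.44 TPM in S217879 livers and 44.2 ± 7.55 TPM in vehicle livers (SD, n = 10 each), a log2 difference of -0.38 (SE 0.13; limma, adjusted p = 0.0206). In 2 of 32 alternatives it no longer passed, when low genes were not filtered out (limma, adjusted p = 0.0536) and in an exact Wilcoxon rank-sum test (adjusted p = 0.0566). Without replicate 9 the difference was -0.46 (limma, adjusted p = 0.00323). After median-of-ratios scaling, with all livers, it was -0.27 (limma, adjusted p = 0.0109). On that scale the other 9 S217879 livers, at 26.7 to 39.0 rescaled TPM, overlapped the vehicle livers, at 36.8 to 46.2. Vehicle replicates 6 and 7 were then at 43.3 and 42.0, no longer the lowest of their group.

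Slc39a5 (chr10:128395931-128401229, minus strand) was the least abundant member and rose in S217879 livers. It encodes ZIP5, a zinc importer of the basolateral membrane of gut and pancreatic acinar cells that is also made in the liver. Its level was 1.07, 2.09 and 3.12 TPM at the lowest, median and highest in S217879 livers, against 0.784, 1.27 and 1.43 TPM in vehicle livers. Of the S217879 livers 9 were above every vehicle liver, and replicate 3 was the exception at 1.07 TPM. The means were 2.22 ± 0.654 TPM in S217879 livers and 1.16 ± 0.240 TPM in vehicle livers (SD, n = 10 each), a log2 difference of 0.68 (SE 0.12; limma, adjusted p = 3.56e-05), or 1.61-fold on the log2(TPM + 0.5) scale. It was called higher in 31 of 31 alternatives and was 0.64 without replicate 9. Slc39a5 overlaps Ankrd52 on the opposite strand, and Ankrd52 was lower in S217879, at 9.62 ± 1.1 TPM against 12.4 ± 1.81 TPM in vehicle (log2 difference -0.34; limma, adjusted p = 0.0117). Without knowledge of strand in the counting, reads from the overlap cannot be assigned with certainty. Pancreatic acinar markers were looked at because pancreas makes much ZIP5. Cpa1 was at 0 in all 20 libraries, Ctrb1 and Pnliprp1 had means of at most 0.113 TPM in either group, and Cela1 was higher, at 31.1 ± 11.2 TPM in S217879 livers and 14.8 ± 3.24 TPM in vehicle livers (limma, adjusted p = 1.80e-06). Summed over the 4 markers this was 22.5 to 60.9 TPM in S217879 livers and 10.1 to 19.3 TPM in vehicle livers, and its part in the Slc39a5 difference was not tested.

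The ratio of Slc39a14 to Slc39a5 within a liver puts side by side an importer that fell and one that rose. Since the calls of both genes fix its direction, it is given as a description, with no test. Its median was 15.03 in S217879 livers (10.8 to 29.3) and 36.1 in vehicle livers (31.0 to 49.0), so that the ranges did not overlap. The log2 difference was -1.29 (SE 0.17). Leaving out each liver in turn gave -1.39 to -1.23. A ratio within a liver shows an unequal change of its 2 genes and not which of them moved.

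**Figure D3:**
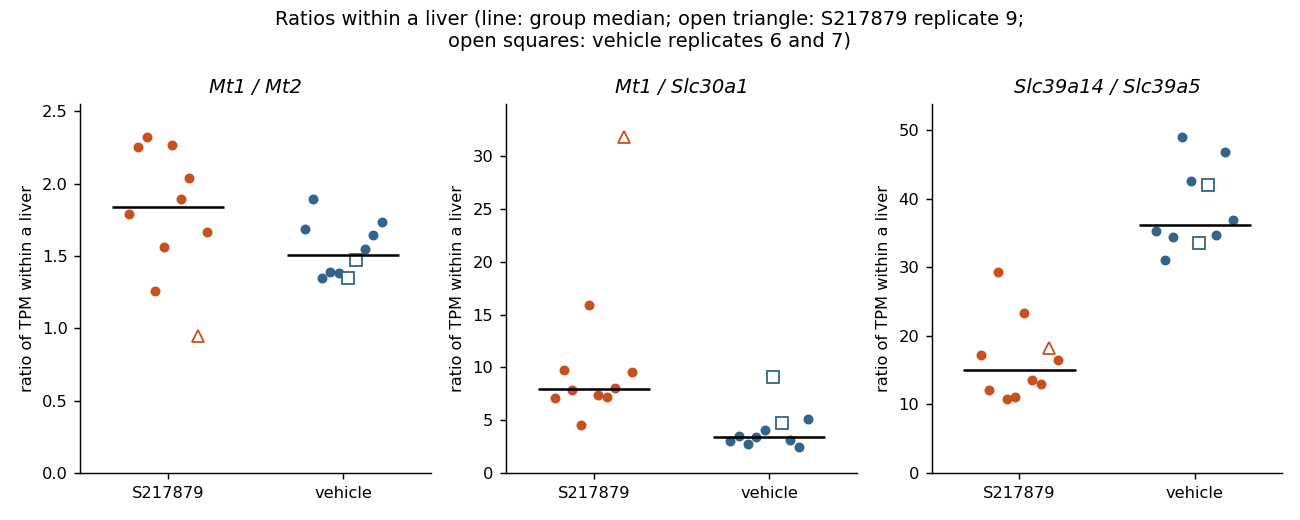
Ratios of TPM within each liver for Mt1 to Mt2, Mt1 to Slc30a1 and Slc39a14 to Slc39a5, S217879 left and vehicle right, 1 point per animal, with the group median as a line. The Slc39a14 to Slc39a5 ratio separates the groups (10.8 to 29.3 in S217879, 31.0 to 49.0 in vehicle), and replicate 9 (open triangle) is the highest S217879 liver in Mt1 to Slc30a1 and the lowest in Mt1 to Mt2.

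Of the 14 genes of the Slc39 family 13 were tested, 3 were higher and 5 lower, beside 6.07% and 23.5% of all genes tested. The median log2 difference was -0.12, the same as that of all genes tested. Slc39a4, which encodes ZIP4, the zinc uptake transporter of the gut, was the most abundant importer in S217879 livers and rose to 99.9 ± 16.1 TPM there, against 65.4 ± 12.5 TPM in vehicle livers (log2 difference 0.61, SE 0.13; limma, adjusted p = 0.000216). It was above every vehicle liver in 9 of 10 S217879 livers. Slc39a11, an importer of intracellular membranes, had 31.3 ± 4.07 TPM in S217879 livers and 23.9 ± 4.94 TPM in vehicle livers (log2 difference 0.40; limma, adjusted p = 0.00988). Besides Slc39a1 and Slc39a14, the lower genes were Slc39a10 (-0.45), Slc39a13 (-0.42) and Slc39a3 (-0.30, called in 17 of 32 alternatives), with adjusted p in limma of 0.00248, 0.0021 and 0.0383. Slc39a10 and Slc39a3 encode importers of the plasma membrane, and Slc39a13 encodes ZIP13, an importer of the secretory pathway known from connective tissue. Slc39a13, Slc39a11, Slc39a6, Slc39a8 and Slc39a9 overlap genes on the opposite strand, and Slc39a2, Slc39a7, Slc39a8 and Slc39a10 genes on their own strand, which leaves reads from those overlaps uncertain. Those that did not pass were Slc39a2 (0.15), Slc39a7 (0.11), Slc39a8 (0.27), Slc39a9 (-0.12) and Slc39a6 (-0.27), and Slc39a12 was below the minimum. After median-of-ratios scaling 6 importers were higher and 5 lower, beside 26.6% and 27.1% of all genes tested on that scale. The 3 added ones were Slc39a2, Slc39a7 and Slc39a8, a manganese and zinc importer closely related to Slc39a14, at 0.38 (limma, adjusted p = 2.99e-06).

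**Figure D4:**
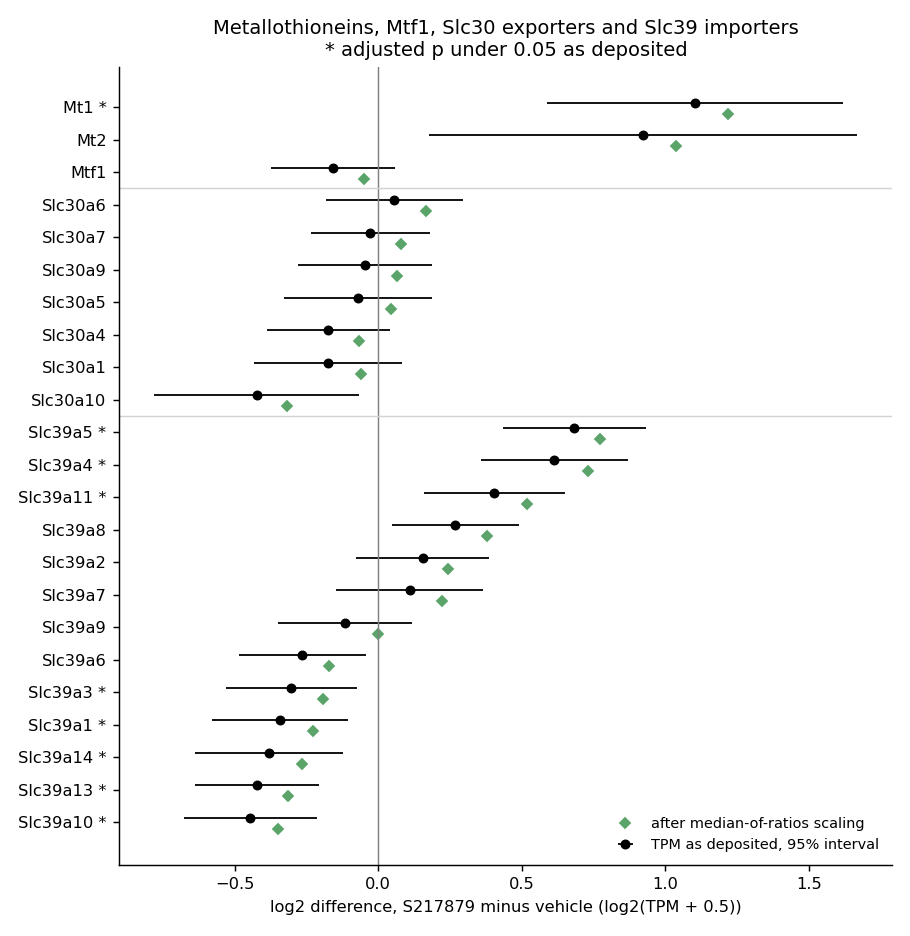
Log2 difference, S217879 minus vehicle, of log2(TPM + 0.5) for the metallothioneins, Mtf1 and the tested Slc30 and Slc39 genes; black points with 95% confidence intervals are the values as deposited, green diamonds those after median-of-ratios scaling, and an asterisk marks an adjusted p under 0.05 as deposited. The asterisks mark Mt1, Slc39a5, Slc39a4 and Slc39a11 to the right of 0 and 5 importers to the left, and 0 exporters carry one.

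TPM is scaled by gene length, so an order of genes by level depends on the lengths the authors used, which are not given. In GENCODE M21 the exons of Mt1 cover all 1246 nt of its span, and those of Mt2 588 of 905 nt. By TPM as deposited, the medians in S217879 livers ran Mt1, Mt2, Slc39a1, Slc39a14, Slc30a1, Mtf1, Slc30a10 and Slc39a5. In vehicle livers Slc39a1 came first, followed by Mt1, Slc39a14 and Mt2. In S217879 livers Mt1 exceeded Mt2 in 9 of 10 livers, but Mt2 and Slc39a1 overlapped, with Mt2 higher in 6 of 10. In vehicle livers Slc39a1 exceeded Mt1 in 8 of 10, and Slc39a14 exceeded Mt2 in 6 of 10 with overlapping ranges. The order from Slc30a1 down to Slc39a5 was shared by the groups, and Slc30a1 lay above Mtf1 in 10 of 10 livers of each group. The coefficient of variation was 80.3% for Mt1 and 134% for Mt2 in S217879 livers, against 20.3% for Mt1 and 24.6% for Mt2 in vehicle livers. Replicate 9 carried much of that spread, since without it the S217879 values were 27.5% for Mt1 and 39.5% for Mt2, beside 33.9% for Slc30a10.

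Copper is the other metal that metallothioneins bind. As deposited, 6.07% of all genes tested were higher and 23.5% lower. Of 9 copper-handling genes 0 were higher and 2 lower by limma, at a median log2 difference of -0.01. Slc31a1, the copper importer CTR1, was the 1 gene higher at an unadjusted p under 0.05 and in the Wilcoxon rank-sum test, at a log2 difference of 0.30. Those lower were Cp, the copper-carrying ferroxidase ceruloplasmin, at 205 ± 35.6 TPM in S217879 livers and 309 ± 51.1 TPM in vehicle livers (log2 difference -0.59; limma, adjusted p = 0.000356), and Slc31a2 (-0.30; limma, adjusted p = 0.0317). Among 7 genes of manganese and iron transport, which include Slc39a14, Slc39a8 and Slc30a10, 1 was higher and 1 lower as deposited, at a median of 0.04. The higher one was Slc40a1, which encodes the iron exporter ferroportin, at 45.9 ± 5.99 TPM in S217879 livers and 33.0 ± 8.51 TPM in vehicle livers (log2 difference 0.51; limma, adjusted p = 0.00272), and the lower one was Slc39a14. After median-of-ratios scaling 4 were higher, Slc40a1, Slc39a8, Tfrc and Atp2c1, and 1 lower, at a median of 0.16. On that scale 26.6% of all genes tested were higher and 27.1% lower.

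Genes of other signals to which metallothioneins respond were counted in the same fit. In that fit 6.07% of all genes tested were higher and 23.5% lower, at a median log2 difference of -0.12. Of 12 acute phase genes, 0 were higher and 6 lower in S217879 by limma (0 higher also unadjusted and by the Wilcoxon test), at a median log2 difference of -0.48, with Orm2 at -1.45, Lcn2 at -1.05 and Itih4 at -0.72. Without S217879 replicate 9, 10 of the 12 were lower, beside 25.2% of all genes tested. Of 9 glucocorticoid-responsive genes, 2 were higher, Fkbp5 (0.76) and Sds (0.66), and 1 was lower, Per1 (-0.51), at a median of -0.19. The part of these signals in the Mt1 difference was not tested.

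Markers of non-parenchymal cells also differed between the groups. Their counts stand beside 6.07% of all genes tested called higher and 23.5% lower (26.6% and 27.1% after median-of-ratios scaling). Of 5 macrophage markers 4 were lower in S217879 livers and 0 higher, and their summed level was 118 to 234 TPM in S217879 livers and 146 to 302 TPM in vehicle livers. Of 5 stellate cell markers 5 were lower, summing to 182 to 341 TPM in S217879 livers and 241 to 451 TPM in vehicle livers. Of the 4 tested cholangiocyte markers of 5, 2 were lower, summing with Krt7 to 89.3 to 243 TPM in S217879 livers and 178 to 466 TPM in vehicle livers, and 2 of 4 endothelial markers were higher (3 after median-of-ratios scaling), summing over the 4 to 82.9 to 112 TPM in S217879 livers and 45.8 to 97.3 TPM in vehicle livers. Fat cell markers were near 0, summing to at most 0.0882 TPM in any liver, with Lep at 0 in all S217879 livers. In bulk tissue, fewer cells of a type and less RNA per cell cannot be told apart, and the part of these markers in the transporter differences was not tested.

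S217879 replicate 9 stood apart in several of these groups. Of the 8 members, Mt1, Mt2, Slc39a1 and Slc39a14 had their highest S217879 level there, as had 23.1% of all genes tested; 50.02% of them had theirs in replicate 4. Mt1 was 2.21 and Mt2 3.33 above the median of the other 9 S217879 livers on the log2 scale, and Slc39a14 0.73 above it. All 12 acute phase genes were highest in the same liver, summing to 21419 TPM, against 9770 to 13717 TPM in the other 9 S217879 livers and 10777 to 19086 TPM in vehicle livers. Of the 11 NRF2 core targets 7 were lowest there, as were 2.29% of all genes tested, although Nqo1, at 74.9 TPM, was still above the highest vehicle liver at 19.6 TPM. Of 9 glucocorticoid-responsive genes 3 were highest there and of the 4 tested cholangiocyte markers 3 were. What moved these levels in that animal was not tested.

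**Figure D5:**
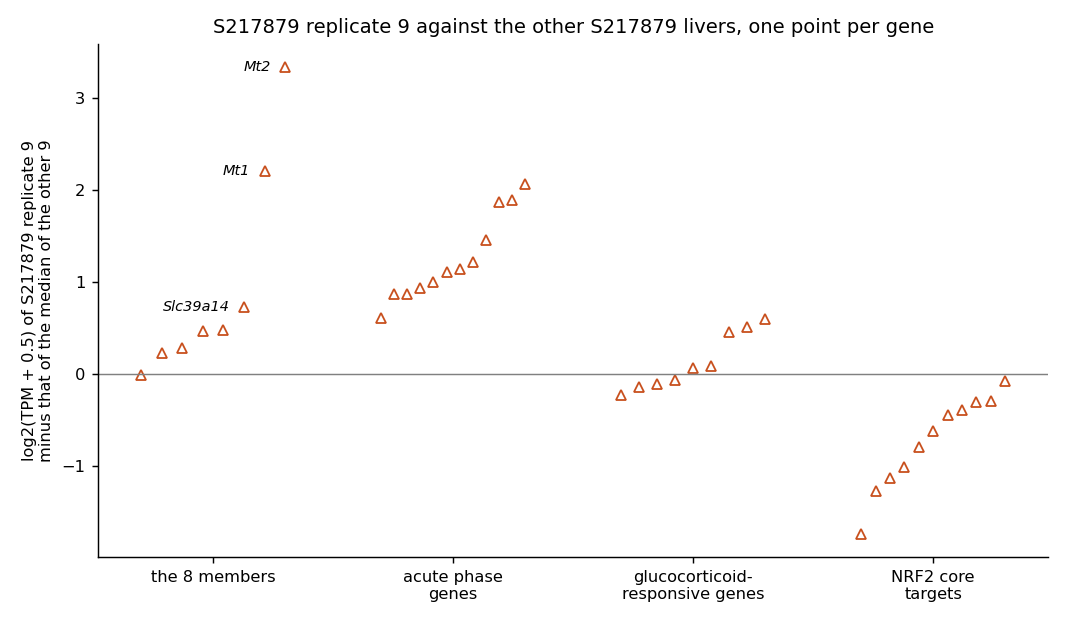
Log2(TPM + 0.5) of S217879 replicate 9 minus the median of the other 9 S217879 livers, 1 triangle per gene, for the 8 genes of zinc handling, the acute phase genes, the glucocorticoid-responsive genes and the NRF2 core targets. Mt2 (3.33), Mt1 (2.21) and the 12 acute phase genes lie above 0, and the 11 NRF2 targets lie below 0.

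The genes whose variation within groups was most like that of 3 members were found by Pearson's r over the 20 livers, after the mean of each group had been subtracted. These are descriptions, and the points share the scale of their library. For Mt1 they were Mt2 (0.95), Gm45774 (0.92), Slc37a1 (0.75), Csrp3 (0.75) and Prtn3 (0.74), beside a median of 0.05 over all genes tested. Mt2 and Gm45774 came first after median-of-ratios scaling too. They also did without S217879 replicate 9, with r of 0.82 for Mt2 and 0.73 for Gm45774, and the other 3 genes were among the 5 in neither case. Gm45774 overlaps Mt2 on the opposite strand, and their reads cannot be told apart with certainty. Its place here is therefore not independent of that of Mt2. For Slc39a14 they were Lin7a (0.96), Thpo (0.95), the plasma protease inhibitor gene Serpina10 (0.94), Atg14 (0.92) and Gm8883 (0.92), beside a median of 0.61. For Slc30a10 they were Desi2, Tars, Leo1, Gm42604 and Fam49a, from 0.84 to 0.87 beside a median of 0.47. After median-of-ratios scaling those medians were -0.01 for both genes. Of the 5 genes for Slc39a14, 3 were again among the first 5 on that scale, Lin7a (0.90), Thpo (0.89) and Serpina10 (0.88), and 2 without S217879 replicate 9, Lin7a (0.95) and Atg14 (0.93). Of the 5 for Slc30a10, 2 recurred after scaling, Tars (0.78) and Leo1 (0.78), and only Tars (0.88) without replicate 9.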

How the data were processed

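Liver RNA was sequenced from 10 S217879 and 10 vehicle mice, 1 library per animal, and groups were taken from the treatment label. Per the labels' protocols, RNA came from a lipid tissue kit and libraries from a stranded mRNA kit with capture of poly(A) RNA. The submitters' processing notes name the build GRCm38 and the tools STAR 2.5.2b, Trimmomatic 0.36, Subread 1.5.2 and featureCounts. The annotation counted, any use of strand and the treatment of reads matching several genes were details not given in the sources used here. Values were deposited as TPM, made by the authors, which keep no depth, so precision is the spread between animals alone. All 20 columns were matched to animals by the animal number in the labels, 0 were left unmapped, and 0 pairs of libraries were identical. Nothing says whether animals were handled together, and p-values measure the spread between these animals.

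Values were taken as log2(TPM + 0.5), which understates fold changes of low genes, for the 13401 genes whose mean over the 20 libraries reached 1 TPM. The comparison was made in R 4.3.3 with limma 3.58.1 (eBayes, both trend and robust; Benjamini-Hochberg adjustment over those genes, threshold 0.05). The same steps were checked on simulated data. Symbols were assigned to 48970 of 49315 identifiers, and 13036 genes were at 0 in every library. Coordinates and overlaps are from GENCODE M21, and stretches of 50 bases shared between transcripts were counted from it. Promoter windows are RefSeq's (GRCm38.p6), with motifs searched on both strands. Ratios within a liver and relations within groups used permutation tests with 100000 resamples, two-sided, adjusted over 3 ratios and over 8 relations. Of the ratios, Slc39a14 to Slc39a5 and Mt1 to Slc30a1 are given as descriptions.

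The 8 genes and the 15 gene lists were chosen with earlier results of these data known. Named are all 8 genes, every tested Slc30 and Slc39 gene, of each other list called genes with the largest differences (not all are described), and for 3 genes the 5 whose variation was most like theirs. Overlapping genes, Nqo1, Slc31a1 and the acinar, fat cell and Krt7 markers are named after their values were seen. Alternatives were pseudocounts of 0.1 and 1, no minimum or a minimum mean of 5 TPM, median-of-ratios scaling, quantile normalization, rescaling without mitochondrially encoded or without the 4 rRNA-type genes, eBayes with neither option, array weights, the Wilcoxon rank-sum test, leaving out each library, and leaving out vehicle replicates 6 and 7. The comparison of S217879 replicate 9 with the other livers, and the likeness and spread without it, were added after its metallothionein values were seen.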

Additional observations from a re-analysis of the deposited data

Results flagged for a closer look

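Of 22 groups of 10 values tested for a sample far from the others (8 genes and 3 ratios in each treatment), 5 held one by Dixon's test. Chance alone marks about 1 in 20 groups, but these groups are not independent, so the 5 cannot be weighed against that share. Most of the 5 come from S217879 replicate 9, and its ratio of Mt1 to Slc30a1 contains its Mt1 level. S217879 replicate 9 had 548 TPM of Mt1, far above the other 9 S217879 livers, at 96.3 to 211 TPM. The same liver had 580 TPM of Mt2, against 47.1 to 135 TPM in the other 9. Its Slc39a14 level was 54.6 TPM, against 25.9 to 38.3 TPM in the other 9. Its ratio of Mt1 to Slc30a1 was 31.8, the highest of its group. Among vehicle livers, replicate 6 had a ratio of Mt1 to Slc30a1 of 9.08, where the median was 3.45. That library was also the one with 58.2% of its TPM in the 4 rRNA-type genes. A ratio within a liver does not depend on the scale of its library, and what moved this ratio was not tested.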

How the results depend on the processing

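Over 33 results and 776 alternative values, 677 were labelled the same. For a gene, a ratio or a relation, the label means that direction and side of the threshold were kept. The ratios given as descriptions were labelled by their permutation p too. For a count of list members, it means only that the count was equal or close to that of the main fit. Mt1, Slc39a1 and Slc39a5 kept their calls in every alternative that gave a value, and Slc39a5 and Slc30a10 gave none at a minimum mean of 5 TPM. The cause of the changes below was not tested.

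Mt2 passed with median-of-ratios scaling (log2 difference 1.04), quantile normalization (0.91), eBayes with neither option (0.92), array weights (0.91), the Wilcoxon test (0.92) and without vehicle replicates 6 and 7 (0.97), and leaving out 1 liver gave 0.61 to 1.01. Rescaling without the 4 rRNA-type genes, array weights and leaving out vehicle replicates 6 and 7 made lower calls of Mtf1 (-0.29, -0.23 and -0.28), Slc30a1 (-0.32, -0.34 and -0.34) and Slc30a10 (-0.57, -0.57 and -0.54). Leaving out 1 liver gave -0.23 to -0.13 for Mtf1, -0.27 to -0.14 for Slc30a1 and -0.53 to -0.37 for Slc30a10. Mtf1 changed sign under quantile normalization, at 0.0175. Slc39a14 no longer passed, at -0.38, without a filter on low values and in the Wilcoxon test. The log2 difference in the Mt1 to Mt2 ratio was 0.13 to 0.28 with 1 liver left out and passed without S217879 replicate 9.

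Higher exporters numbered 1 with no filter, 1 with median-of-ratios scaling and 2 with quantile normalization, and higher importers 6 with either scaling. Lower exporters numbered 1 with no filter, 6 without the rRNA-type genes, 6 with array weights, 5 without vehicle replicates 6 and 7, and 0 to 3 with 1 liver left out. Lower importers numbered 3 with no filter and 3 in the Wilcoxon test. Higher copper genes numbered 3 with either scaling and 1 without the rRNA-type genes, with array weights and in the Wilcoxon test. Lower copper genes numbered 1 with no filter, 1 without mitochondrial genes, 5 without the rRNA-type genes, 4 with array weights, 4 without vehicle replicates 6 and 7, and 1 to 3 with 1 liver left out. Without the rRNA-type genes, with array weights and without vehicle replicates 6 and 7, the lower acute phase genes numbered 10, 11 and 10, the lower glucocorticoid-responsive genes 6, 4 and 5, and the lower NRF2 targets 1, 1 and 1. With 1 liver left out these were 5 to 10 acute phase genes, 1 to 3 glucocorticoid-responsive genes and 0 to 1 NRF2 targets. Lower glucocorticoid-responsive genes were 2 at a minimum mean of 5 TPM and 3 with quantile normalization. Higher genes of manganese and iron transport, whose alternatives were added after seeing the data, numbered 4 with either scaling, 3 without the rRNA-type genes, 3 with array weights, 2 with eBayes with neither option, and 1 to 2 with 1 liver left out. Their lower genes numbered 0 with no filter and in the Wilcoxon test, 3 without the rRNA-type genes, with array weights and without vehicle replicates 6 and 7, and 1 to 3 with 1 liver left out (3 without S217879 replicate 4 or vehicle replicate 6, 2 without vehicle replicate 10).

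After median-of-ratios scaling, r of Mt1 with Slc30a1 in S217879 livers was -0.38, against 0.06 as deposited, and r of Mt1 with Slc39a14 in vehicle livers was 0.40, against -0.08. On that scale Mt1 with Slc39a14 in S217879 livers, at r = 0.82, and Mt1 with Slc30a1 in vehicle livers, at r = -0.76, each passed with an adjusted permutation p of 0.0322. Of all genes tested, 9113 (63.1%) were lower without the rRNA-type genes, 8023 (59.9%) with array weights, 7307 (54.4%) without vehicle replicates 6 and 7 and 5194 (38.7%) without vehicle replicate 6, against 3151 (23.5%). No paired analysis was possible because the labels number every animal separately and share no number between the groups. Depth is unknown, so no limit on low values from counting can be given.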
